A study of Mus musculus with 10 samples.

Results

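A set of 32 genes typical of mature neutrophils was followed through RNA sequencing of mouse blood. The members were the rows of the deposited table whose gene symbol equalled one of 32 names, and all 32 were found among the 30984 genes listed. The treatment label gave a burn wound healing group of 6 libraries, titled M1 to M6, and a burn wound healing-NC group of 4 libraries, titled N1 to N4. The letters NC are not expanded in the labels. Peripheral blood mononuclear cells and manganese chloride are named in the series title, but no sample label says which group received that agent. Both groups carry the words burn wound healing. Strain, sex, age, burn procedure and time of sampling are not given in the labels. The labels also do not say whether each library came from a separate animal, so the p-values reflect the scatter between these libraries alone, which may be technical.

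Neutrophils are short-lived granulocytes that leave the bone marrow as mature cells and are among the first to reach an injury. They find their way with receptors for bacterial peptides and lipid mediators, and granulocyte colony-stimulating factor (G-CSF) drives their formation and release through its receptor and STAT3. Many granule proteins are made early in the marrow, whereas many receptors and metabolic enzymes are made late, in mature cells. Not every member of the set keeps to this order.

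The labels name the material in 3 ways, as whole blood, lymphocyte and monocytes. All 9 neutrophil-defining markers were detected, with a summed level of 941 to 3342 FPKM (fragments scaled by gene length and library total) in M and 695 to 7501 FPKM in N. Red cell markers, mainly haemoglobin, summed to 94150 to 172108 FPKM, and T cell, B cell, monocyte and platelet markers were present in every library. Library totals were 30677206 to 36379663 counts. The 32 members together held 0.243 to 0.607% of them. The lowest count of any member in any library was 22 (Hcar2 in N2), so for most members the spread between libraries exceeded counting error. In bulk blood, fewer neutrophils and less RNA per neutrophil cannot be told apart.

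Libraries N1 and N4 stood apart from the other 8 on these genes. The level of the set was taken as the mean over members of log2 CPM (counts scaled to a common library total with TMM factors) after centring each gene on its mean over the 10 libraries. It was 1.19 in N1 and 1.22 in N4. N2 had the lowest level of all libraries, -0.88, and N3 stood at -0.32. The M libraries lay between these, at -0.16, -0.24, -0.09, 0.26, -0.59 and -0.39 for M1 to M6. The N group therefore spanned the whole range of the M group and passed it at both ends. Its mean was 0.30 ± 1.07 (SD, n = 4), against -0.20 ± 0.29 (SD, n = 6) in M. Results on the group difference are given with all libraries and without N1 and N4. N1 and N4 were picked for their high level on these same genes. The fit without them therefore describes how M stood beside N2 and N3, and is no test of the groups.

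**Figure D1:**
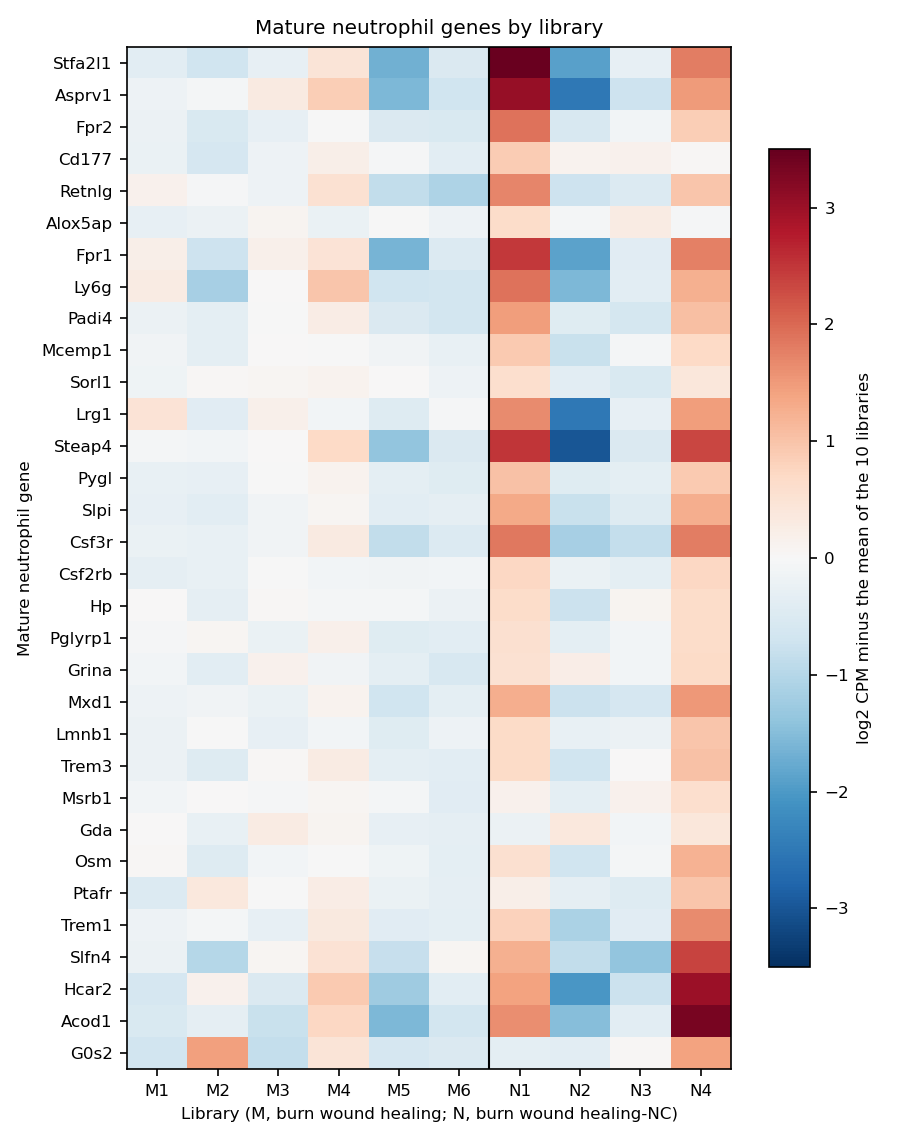
Centred log2 CPM of the 32 mature neutrophil genes (rows, ordered by the difference between N4 and N1) in the 10 libraries (columns), where red is above and blue below the gene's mean. N1 and N4 are red for nearly all genes, N2 is mostly blue, and the 6 M libraries are paler, with M4 mostly red and M5 mostly blue.

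The comparison of M with N asked whether mature neutrophil transcripts differed between the treatment groups. No member passed the threshold. All 32 members had lower values in M than in N, with a median log2 difference of -0.69 and a range of -2.35 (Stfa2l1) to -0.11 (Sorl1). Over all 17268 genes tested the median was 0.02, and 45.3% had lower values in M. In edgeR's quasi-likelihood test, 0 of 32 members had an adjusted p under 0.05, and the same test called 0% of all genes. Adjusted p-values of the members ran from 0.393 to 0.884. At an unadjusted p under 0.05 there were 16 members, all lower in M, beside 7.00% of all genes lower in M at that level. DESeq2 called 0 members and 0.492% of all genes, and its smallest adjusted p for a member was 0.0938, for Grina. The M and N libraries overlapped for each of the 32 members, whereas 0.683% of all genes had every M library below every N library.

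Without N1 and N4 the sign of most members turned. Leaving out the libraries highest on these genes lowers the N values, so this turn is partly built in. The p-values of this fit are therefore no test of M against N. Against N2 and N3 alone, 27 of the 32 members had higher values in M, and the median log2 difference was 0.33, with 0.02 over all genes. The members still lower in M were Cd177, Fpr2, Grina, Gda and Alox5ap. edgeR called 0 members in this fit and 0.149% of all genes. At an unadjusted p under 0.05 there were 8 members, all higher in M (Csf3r, Trem1, Slfn4, Asprv1, Mxd1, Sorl1, Lrg1 and Slpi), beside 8.86% of all genes higher in M at that level. Leaving out N1 alone gave a median of -0.43, and leaving out N4 alone gave -0.49. Leaving out N2 or N3 moved it the other way, to -0.97 and -0.93.

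**Figure D2:**
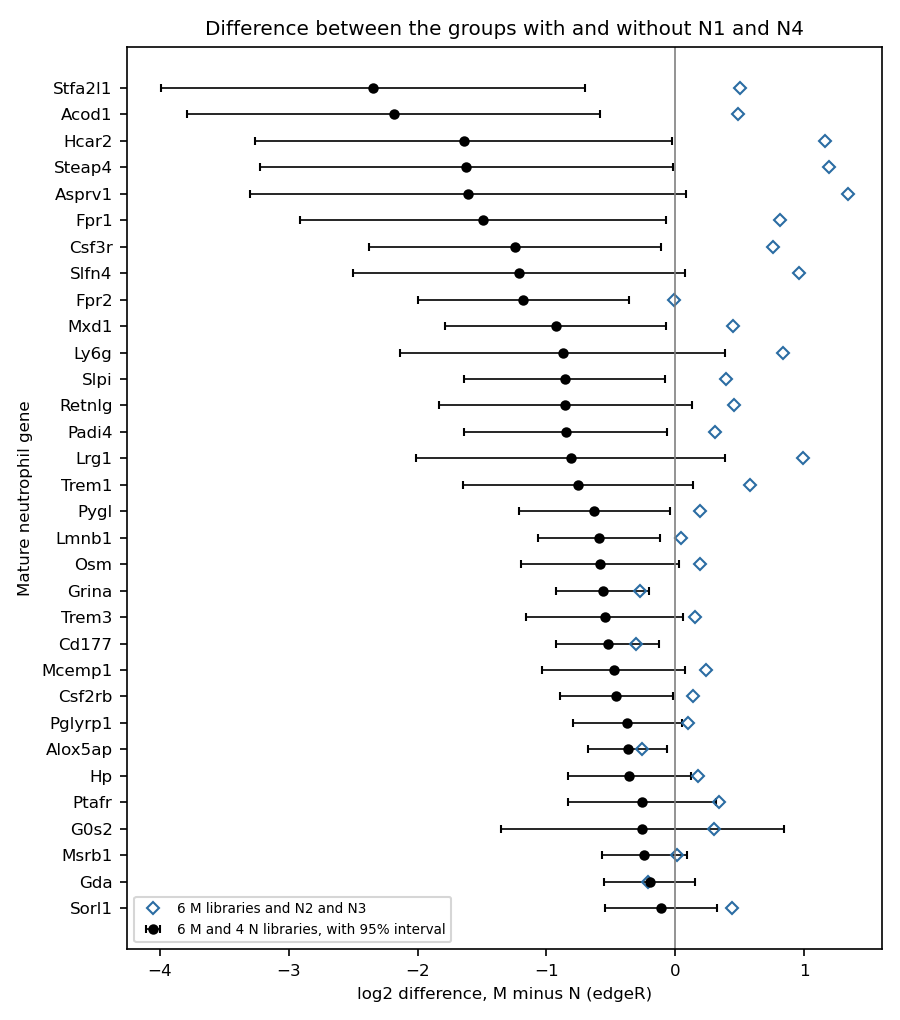
log2 difference of M minus N for each member (edgeR), with all 10 libraries as black points with 95% intervals, and with N1 and N4 left out as open blue diamonds. The black points lie between -2.35 and -0.11, all below 0, while 27 of the 32 diamonds lie above 0. N1 and N4 were picked for their high level on these same genes.

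The spread within N set the precision. The SD of log2 CPM of a member had a median of 0.27 in M and 0.94 in N, beside 0.21 and 0.34 over all genes. It was larger in N than in M for 31 of 32 members, beside 75.8% of all genes, and more than 3 times as large for 18 members, beside 15.2% of all genes. N1 and N4 were both above each of the other 8 libraries for 27 members, as for 5.61% of all genes. N1 was above every M library for 29 members and N4 for 29, beside 24.4% and 14.6% of all genes. N1 and N4 were picked for their high level on these same genes, so their counts are a description and no test. N2 was below every M library for 18 members and N3 for 5, beside 23.0% and 28.4% of all genes. The median fold over the M median was 2.30 in N1, 2.50 in N4, 0.697 in N2 and 0.951 in N3. Among the M libraries, M4 had the highest value for 21 members, and M5 or M6 the lowest for 20.

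On the FPKM scale, which allows genes to be set side by side, the set was led by a few transcripts. Retnlg had the highest mean level, 396 FPKM over the 10 libraries. Hp (137), Msrb1 (131) and Grina (102) followed as the other members above 100 FPKM, then Gda at 89.5, Alox5ap at 88.0 and Csf3r at 78.7 FPKM. The lowest was Hcar2 at 2.41 FPKM. Of the 32 members, 24 reached 10 FPKM. The 5 highest held 58.6% of the summed FPKM of the set on average. Retnlg alone held from 16.9% in M6 to 36.1% in N1. The summed level of the set was 967 to 1546 FPKM in M and 908 to 2928 FPKM in N.

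The promoters of 24 members, as 26 windows of 300 bases from 250 before to 50 after the start (RefSeq, GRCm38.p6), were searched on both strands for motifs of 3 factor families known in granulocytes. The C/EBP letters TTGCNNAA were in 6 windows, 23.1%, beside 10.8% of all 32851 promoters of that length. The PU.1 letters AGGAAGT were in 6 windows (5 members), 23.1%, beside 9.35% of all. The STAT letters TTCNNNGAA were in 4 windows, 15.4%, beside 8.30% of all. These shares rest on few windows and are a description of letters, not of bound sites. No promoter window was used for Alox5ap, Csf2rb, Grina, Hcar2, Hp, Lmnb1, Osm and Trem3. The 4 promoters printed here are examples and do not stand for the set. The windows of Csf3r, Cd177, Asprv1 and Fpr1, among others, hold no match to the 3 motifs. Capitals mark the motif matches, which do not overlap one another. Steap4 (chr5:7960222-7960521, plus strand) holds a STAT match at -116 and a C/EBP match at -87 from its start. Trem1 (chr17:48232489-48232788, plus strand) holds a STAT match at -171 and a PU.1 match on the other strand at -109. Ly6g (chr15:75155011-75155310, plus strand) holds a C/EBP match on the other strand at -232 and a PU.1 match at -30. Stfa2l1 (chr16:36156561-36156860, plus strand), the member with the largest difference, holds none of these letters.
Steap4: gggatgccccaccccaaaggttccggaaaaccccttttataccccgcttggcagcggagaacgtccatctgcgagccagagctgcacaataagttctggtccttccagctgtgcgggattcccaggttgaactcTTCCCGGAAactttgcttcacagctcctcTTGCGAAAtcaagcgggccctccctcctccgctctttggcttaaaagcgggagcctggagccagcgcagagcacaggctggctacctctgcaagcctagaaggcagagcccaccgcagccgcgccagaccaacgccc
Trem1: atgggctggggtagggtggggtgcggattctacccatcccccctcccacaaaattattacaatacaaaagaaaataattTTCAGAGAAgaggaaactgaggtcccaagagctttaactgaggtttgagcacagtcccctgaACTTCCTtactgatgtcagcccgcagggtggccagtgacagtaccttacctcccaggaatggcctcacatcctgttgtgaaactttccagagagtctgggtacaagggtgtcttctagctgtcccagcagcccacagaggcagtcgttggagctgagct
Ly6g: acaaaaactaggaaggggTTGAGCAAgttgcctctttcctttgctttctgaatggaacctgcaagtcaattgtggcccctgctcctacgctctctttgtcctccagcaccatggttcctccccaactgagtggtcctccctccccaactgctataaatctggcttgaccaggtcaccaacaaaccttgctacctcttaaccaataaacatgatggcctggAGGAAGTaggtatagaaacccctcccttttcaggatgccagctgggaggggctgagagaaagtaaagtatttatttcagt
Stfa2l1: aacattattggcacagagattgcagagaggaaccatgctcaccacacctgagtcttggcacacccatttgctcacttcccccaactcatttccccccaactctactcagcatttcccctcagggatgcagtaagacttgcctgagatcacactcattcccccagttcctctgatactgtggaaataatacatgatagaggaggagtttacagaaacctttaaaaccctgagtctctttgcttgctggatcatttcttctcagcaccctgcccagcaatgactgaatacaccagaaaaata

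Receptors for growth factors and chemoattractants were the members with the largest median difference, -1.21 over 6 genes, all lower in M. Of the 6 receptors, 5 had an unadjusted p under 0.05, beside 7.00% of all genes lower at that level, and 0 passed the threshold. Csf3r, the G-CSF receptor (ENSMUSG00000028859; mm10 chromosome 4, 126024550 to 126044440, plus strand), is the most abundant of them. It ranged from 117 to 268 CPM in M with a median of 180.4, and stood at 769, 94.9, 121 and 746 CPM in N1 to N4. N1 and N4 were thus far above every M library, while N2 lay below all of them and N3 within their range. Its log2 difference was -1.25 (SE 0.52, 95% interval -2.38 to -0.11), with an edgeR adjusted p of 0.418. Without N1 and N4 the difference was 0.76.

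Fpr2, a formyl peptide receptor that also binds host lipids and serum amyloid (chromosome 17, 17887824 to 17893952), had the smallest p among the receptors. Its M values ran from 10.4 to 14.9 CPM with a median of 11.5, and its N values were 56.8, 10.1, 14.0 and 27.3 CPM. Only N1 and N4 left the M range upward, and N1 was the higher by 2.08-fold. The log2 difference was -1.18 (SE 0.38) and the edgeR adjusted p 0.393, and without N1 and N4 the difference was -0.01. Fpr2 overlaps Fpr3 on the same strand in the annotation, but Fpr3 had at most 0.0532 CPM in any library.

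Fpr1, the high-affinity receptor for bacterial formyl peptides, stood at 2.36 to 10.3 CPM in M (median 6.83) and at 40.6, 1.97, 5.51 and 25.2 CPM in N1 to N4. Hcar2, the receptor for niacin and the ketone body beta-hydroxybutyrate, had M values of 1.12 to 5.05 CPM (median 1.97) and N values of 7.12, 0.637, 1.6 and 21.7 CPM. The log2 difference of Hcar2 was -1.64 (SE 0.74), the largest of the receptors, with an edgeR adjusted p of 0.442. Fpr1 was highest in N1 and Hcar2 in N4, both lowest in N2. Ptafr, the receptor for platelet-activating factor, departed from that picture. Its M values of 14.7 to 26.2 CPM (median 18.7) enclosed N1 at 23.6, N2 at 16.6 and N3 at 14.9, and only N4 at 40.1 CPM lay above them. Its log2 difference, -0.26 (SE 0.26), was the smallest of the receptors, with an edgeR adjusted p of 0.743. Csf2rb, the beta chain shared by the receptors for GM-CSF, interleukin-3 and interleukin-5, was at 97.8 to 121 CPM in M (median 113) and 202, 104, 96.6 and 201 CPM in N. N1 and N4 were nearly equal for Csf2rb, closer to each other than for any other member. Csf2rb has a near copy, Csf2rb2, and Fpr1 and Fpr2 belong to a family of close paralogues, so reads shared between copies may have been split.

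**Figure D3:**
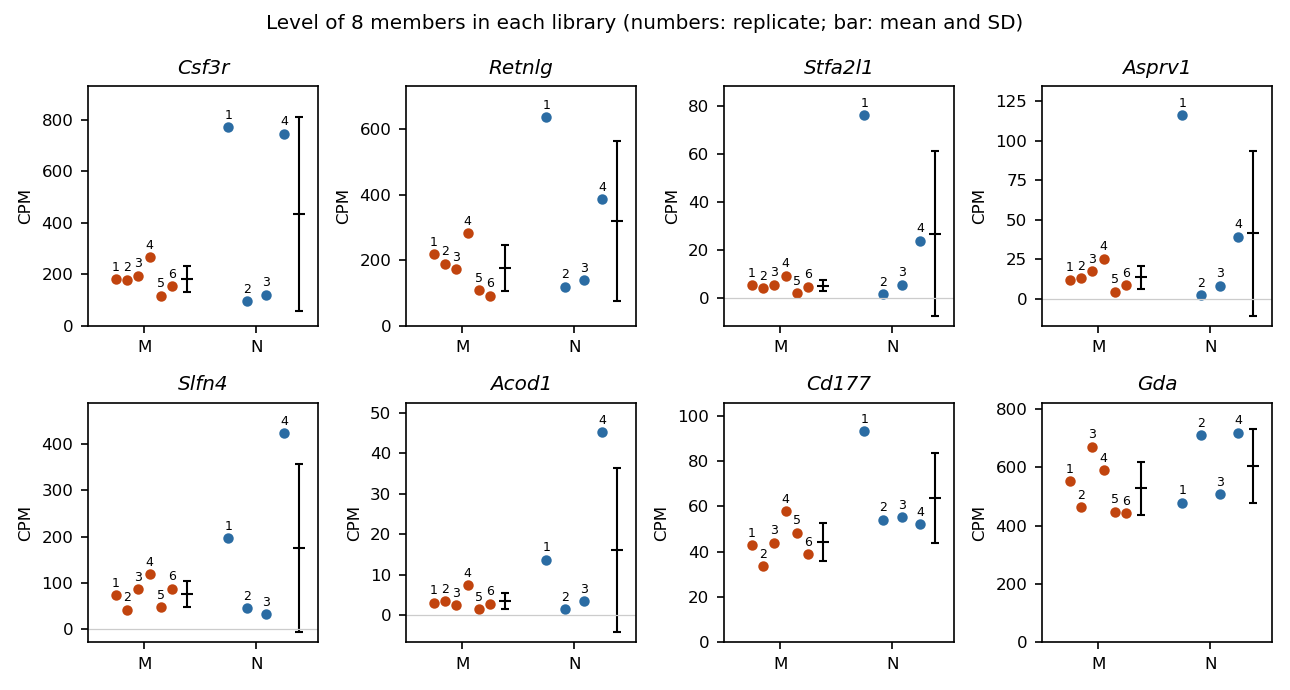
CPM of 8 members in each library, M in orange and N in blue, with the replicate number beside each point and the group mean with SD as a black bar. Csf3r shows N1 and N4 together at the top, Stfa2l1 and Asprv1 show N1 alone far above N4, Acod1 and Slfn4 show N4 above N1, and Cd177 and Gda do not put N1 and N4 on top.

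Secreted proteins and protease inhibitors had a median of -0.81 over 7 genes, all lower in M. Of the 7, 2 had an unadjusted p under 0.05, beside 7.00% of all genes lower at that level, and 0 passed the threshold. Retnlg, a resistin-like protein made by mouse granulocytes (ENSMUSG00000022651; chromosome 16, 48872621 to 48874496), ranged from 92.7 to 283 CPM in M, with a median of 182. In N1 to N4 it stood at 637, 119, 139 and 387 CPM. N1 and N4 lay above every M library, while N2 and N3 were inside the M range. M minus N was -0.85 on the log2 scale (SE 0.45) and the edgeR adjusted p 0.490.

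Stfa2l1, of the stefin A family of cysteine protease inhibitors (ENSMUSG00000059657; chromosome 16, 36156811 to 36161953), had the largest difference of all members. In M it ran from 2.13 to 9.49 CPM with a median of 5.10, and in N1 to N4 it stood at 76.1, 1.82, 5.69 and 24 CPM. The highest library, N1, was 41.7-fold above the lowest, N2, and both belong to N. Its log2 difference was -2.35 (SE 0.75, 95% interval -3.99 to -0.70), with an edgeR adjusted p of 0.393. Without N1 and N4 it was 0.50. The stefin genes lie in a cluster of near copies, so the value of a single one is uncertain. The copies Stfa1, Stfa2 and Stfa3 were also highest in N1, and Stfa2 stood at 20.7 CPM in N1, 1.08 CPM in N4 and 0.298 to 1.05 CPM in M.

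Hp, haptoglobin, which binds free haemoglobin, showed the smallest difference of the secreted group. Its M values were 170.0 to 220.4 CPM (median 202), against 329, 126, 225 and 334 CPM in N1 to N4. N1 and N4 were nearly equal and well above M, and N3 was just above the highest M library. M minus N came to a log2 value of -0.36 (SE 0.22), with an edgeR adjusted p of 0.553. Lrg1, a leucine-rich glycoprotein of inflammation, stood at 23.3 to 44.4 CPM in M (median 30.5) and at 101, 5.56, 26.2 and 87.9 CPM in N. Slpi, an inhibitor of neutrophil elastase, stood at 21.4 to 29.4 CPM (median 22.7) and at 70.3, 16.1, 20.4 and 66.6 CPM. In both genes N1 and N4 were above, and N2 below, all M libraries. Hp and Lrg1 are also liver transcripts and Slpi an epithelial one. The 8 liver markers summed to 0.185 to 2.12 FPKM in M and 0.411 to 1.23 FPKM in N, and the 8 epidermis markers to 0.810 to 1.89 and 1.23 to 1.49 FPKM. Pglyrp1, which binds bacterial peptidoglycan, stood at 30.6 to 46.3 CPM in M (median 37.8) and at 61.1, 32.5, 38.5 and 64.2 CPM in N. Osm, the cytokine oncostatin M, was at 26.0 to 36.6 CPM (median 33.0) and at 53.1, 21.9, 34.3 and 83.2 CPM. Both again had N1 and N4 as their highest libraries.

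Surface proteins had a median of -0.55 over 5 genes, all lower in M. Of the 5, 1 had an unadjusted p under 0.05, beside 7.00% of all genes lower at that level, and 0 passed the threshold. Ly6g, the anchored surface antigen by which mouse neutrophils are recognised (ENSMUSG00000022582; chromosome 15, 75155240 to 75159126), was low throughout. It ran from 2.17 to 9.57 CPM in M, with a median of 4.02, and stood at 18.2, 1.62, 3.78 and 11.5 CPM in N1 to N4. M4, at the top of M, came close to N4. Its log2 difference was -0.87 (SE 0.58), with an edgeR adjusted p of 0.583.

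Cd177, another anchored surface protein of neutrophils (chromosome 7, 24743983 to 24760311), had the smallest p of the surface group. Its values in M were 33.5 to 57.9 CPM (median 43.4), and in N1 to N4 they were 93.2, 54.1, 55.2 and 52.0 CPM. N1 alone stood out, and N4 was the lowest N library, below M4. The log2 difference was -0.52 (SE 0.18), with an edgeR adjusted p of 0.393, and it was -0.30 without N1 and N4. Mcemp1, a membrane protein first described in mast cells, was at 26.8 to 34.2 CPM in M (median 31.1) and at 64.3, 19.8, 32.5 and 55.2 CPM in N. Trem1, a receptor that amplifies inflammatory signals, was at 39.6 to 65.3 CPM (median 44.2) and at 90.8, 24, 39.3 and 165 CPM. Trem3, its neighbour on chromosome 17, was at 7.5 to 12.8 CPM (median 8.61) and at 16.5, 6.39, 10.5 and 21.3 CPM. The Trem genes were highest in N4 and Mcemp1 in N1, and N2 was the lowest library for all 3. Mcemp1 had the highest mean level of the surface group, 23.9 FPKM. Its log2 difference, -0.48 (SE 0.25), was the smallest of that group, with an edgeR adjusted p of 0.492.

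Enzymes and metabolic regulators formed the largest group, with 9 genes, all lower in M, and a median of -0.63. Of the 9 enzymes, 5 had an unadjusted p under 0.05, beside 7.00% of all genes lower at that level, and 0 passed the threshold. Msrb1, a reductase of oxidised methionine, was the most abundant of them on the FPKM scale. It stood at 123 to 171 CPM in M (median 157) and at 179, 127, 179 and 242 CPM in N1 to N4. N1 and N3 were level with each other just above M, N4 was higher and N2 near the bottom of M. Its log2 difference was -0.24 (SE 0.15), with an edgeR adjusted p of 0.566.

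Acod1, which makes the immunomodulatory metabolite itaconate (ENSMUSG00000022126; chromosome 14, 103046977 to 103056573), had the largest difference of the enzymes. Its M values ran from 1.49 to 7.5 CPM with a median of 3.0, and its N values were 13.8, 1.59, 3.47 and 45.3 CPM. N4 was 3.29-fold above N1, and N2 and N3 were both inside the M range. Its log2 difference was -2.19 (SE 0.73, 95% interval -3.79 to -0.58), with an edgeR adjusted p of 0.393, and without N1 and N4 it was 0.49.

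Gda, guanine deaminase of purine breakdown (chromosome 19, 21391307 to 21473445), had the smallest difference of the enzymes. It stood at 442 to 671 CPM in M (median 508) and at 479, 711, 509 and 719 CPM in N. Its high libraries were N4 and N2, and N1 was below the M median, the only member for which that held. The log2 difference was -0.20 (SE 0.16), with an edgeR adjusted p of 0.669. The level of the red cell markers was 0.92 in N2 and -1.75 in N1 on the centred log2 scale, and their part in the Gda values was not tested.

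Steap4, a metalloreductase of the plasma and endosomal membrane (chromosome 5, 7960457 to 7982213), was farthest from the median pattern of the set, with a root mean square distance of 1.02 log2 units. Its values were 6.01 to 25.7 CPM in M (median 14.9) and 88.7, 1.97, 11.1 and 79.5 CPM in N1 to N4. N1 and N4 were again highest and N2 lowest, with a 45.1-fold range from N2 to N1. The distance grows with the size of such swings, so it does not mark Steap4 as breaking the order of libraries. The log2 difference was -1.62 (SE 0.73), with an edgeR adjusted p of 0.443. Pygl, liver-type glycogen phosphorylase, was nearest to the median pattern, at a distance of 0.11. It stood at 85.3 to 125 CPM in M (median 94.1) and at 231, 85.3, 90.5 and 213 CPM in N.

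The remaining enzymes showed each kind of departure. Asprv1, an aspartic protease also made in skin, was at 4.65 to 25.6 CPM in M (median 12.8) and at 116, 2.46, 8.43 and 39.4 CPM in N. Padi4, which citrullinates histones when neutrophil extracellular traps form, was at 13.9 to 26.1 CPM (median 18.0) and at 59.8, 16.3, 14.2 and 45.5 CPM. Both had N1 above N4. Alox5ap, the activating protein of leukotriene synthesis, was at 100.1 to 130.3 CPM in M (median 108) and at 193, 118, 150.3 and 119 CPM in N, so that N4 was inside the M range and N3 above it. G0s2, an inhibitor of triglyceride breakdown, was at 3.52 to 17.2 CPM in M (median 4.33) and at 4.97, 4.92, 6.49 and 17.0 CPM in N. M2 and N4 were its 2 high libraries, 1 in each group. Its log2 difference was -0.26 (SE 0.50), and the edgeR adjusted p, 0.884, was the largest of the set. The adipose markers measured, 4 of 6 listed, summed to 1.33 to 2.26 FPKM over the 10 libraries.

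Nuclear and intracellular membrane proteins had a median of -0.59 over 5 genes, all lower in M. Of the 5, 3 had an unadjusted p under 0.05, beside 7.00% of all genes lower at that level, and 0 passed the threshold. Grina, a membrane protein with a role in calcium handling and cell survival (ENSMUSG00000022564; chromosome 15, 76246764 to 76249904), had the smallest p of all members. Its M values were 137 to 227 CPM (median 173) and its N values 295, 238, 189.9 and 322 CPM. N3 was the single N library inside the M range. On the log2 scale M minus N was -0.56 (SE 0.17, 95% interval -0.92 to -0.20), with an edgeR adjusted p of 0.393, and it was -0.27 without N1 and N4.

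Slfn4, a Schlafen family protein of myeloid cells (chromosome 11, 83175186 to 83190216), had the largest difference of this group. In M it ran from 41.2 to 118 CPM with a median of 79.2, and in N1 to N4 it stood at 197, 45.5, 31.9 and 424 CPM. N4 was 2.15-fold above N1, and N3 was the lowest of the 10 libraries. For M minus N the log2 value was -1.21 (SE 0.59), with an edgeR adjusted p of 0.462, and it was 0.96 without N1 and N4. Mouse Schlafen genes include close paralogues, so this value is uncertain. Sorl1, a sorting receptor of the trans-Golgi network and endosomes, had the smallest difference of the set, -0.11 (SE 0.20), with an edgeR adjusted p of 0.868. Its M values were 459 to 567 CPM (median 525), and its N values were 786, 402, 359 and 678 CPM, above M in N1 and N4 and below M in N2 and N3. Mxd1, a MYC antagonist switched on as granulocytes mature, was at 90.9 to 163 CPM in M (median 129) and at 362, 88.3, 99.3 and 422 CPM in N. Lmnb1, lamin B1 of the nuclear envelope, was at 41.8 to 56.0 CPM (median 49.5) and at 90.5, 47.4, 48.6 and 111 CPM. Both were highest in N4, then N1. Of the 32 members, 22 overlap no other gene in the annotation. G0s2 overlaps Lamb3, and Trem1, Sorl1, Pygl and Alox5ap overlap non-coding genes on the opposite strand, and how strand was counted is not given in the sources used here.

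N1 and N4 shared the high level of the set, and most members were within 2-fold of each other in the pair. N1 was the higher of the pair for 17 members and N4 for 15. At least 2-fold higher in N4 were 4 members, Acod1, Slfn4, G0s2 and Hcar2, with folds of 3.29, 2.15, 3.41 and 3.04. At least 2-fold higher in N1 were 3 members, Stfa2l1, Asprv1 and Fpr2, with folds of 3.17, 2.95 and 2.08. The other 25 were within 2-fold. These are values of 2 single libraries, so the differences between them have no replicate check. The share of all genes at least 2-fold apart between N1 and N4 was not taken, so these counts cannot be called particular to the set.

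**Figure D4:**
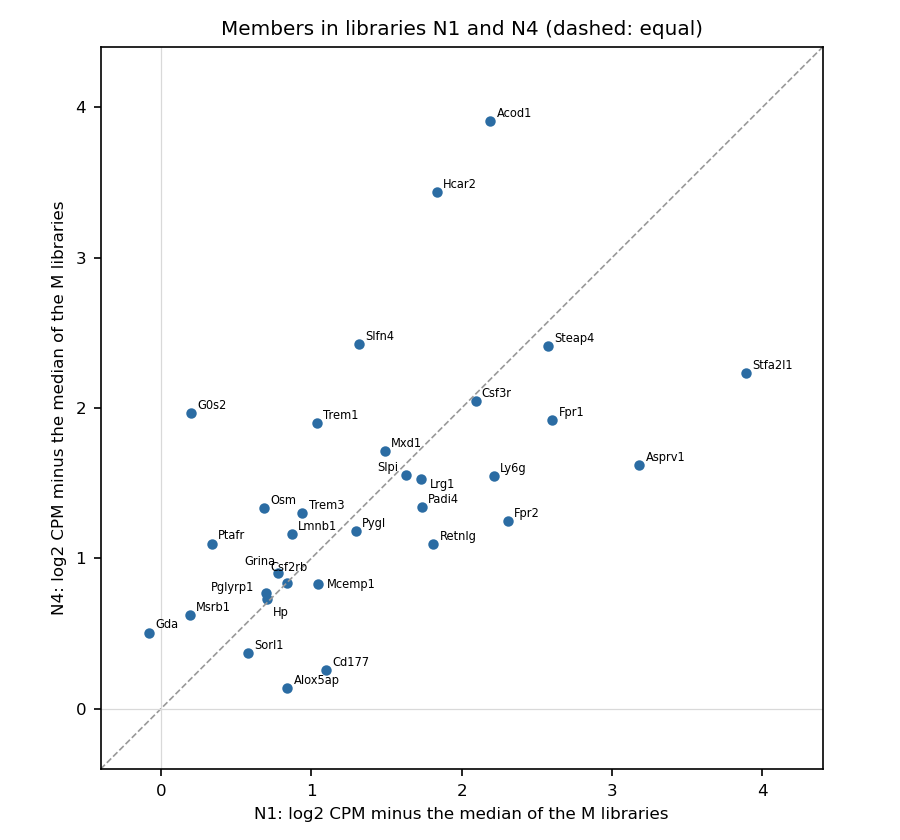
log2 CPM of each member minus the median of the M libraries, in N1 (horizontal axis) and N4 (vertical axis), with the dashed line where both are equal. Most members lie in the upper right along the line, Acod1, Hcar2, Slfn4 and G0s2 lie above it, and Stfa2l1, Asprv1 and Fpr2 lie below it.

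Neutrophil genes outside the set were set beside it. Of 38 other mature neutrophil genes listed, 37 were tested, 34 had lower values in M, the median log2 difference was -0.65 and 0 passed the edgeR threshold. N1 and N4 were both above the other 8 libraries for 28 of the 37, beside 5.61% of all genes. Cxcr2, the receptor for CXC chemokines that call neutrophils out of the marrow, ran from 20.8 to 89.9 CPM in M (median 57.2) and stood at 402, 14.4, 37.7 and 325 CPM in N1 to N4. The alarm protein gene S100a9 ran from 281 to 1129 CPM (median 645) and stood at 2571, 203, 397 and 2052 CPM. Both had N1 highest, N4 next and N2 lowest, as Csf3r did. At least 2-fold higher in N4 than in N1 were Il1b, Cxcl2 and Ccrl2, which are inducible genes of activated myeloid cells. Cxcl2, a neutrophil-attracting chemokine, stood at 61.0 CPM in N1 and 294 CPM in N4, and the interleukin-1 beta gene Il1b at 300.4 and 641 CPM. The opposite, at least 2-fold higher in N1, held for 6 of the 37, among them the stefin genes Stfa1, Stfa2 and Stfa3. The share of all genes was not taken for these 2-fold counts.

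Most granule genes of immature neutrophils differed between N1 and N4, which are 2 single libraries. Of 14 tested, 12 had lower values in M, the median was -0.45 and 0 passed. N1 was the highest library for 12 of the 14 and at least 2-fold above N4 for 10. The share of all genes was not taken for these counts, so they cannot be called particular to this list. N1 was above every M library for 24.4% of all genes, which is a different measure. The level of this list was 1.63 in N1 and -0.34 in N4. Camp, the granule peptide cathelicidin, stood at 37.3 CPM in N1 and 7.35 CPM in N4, beside 4.91 to 18.8 CPM in M. The primary granule genes Mpo and Elane, made earliest, stood at 5.71 and 4.79 CPM in N1 and at 0.142 and 0.171 CPM in N4. In M they ran from 0.328 to 2.55 and from 0.298 to 0.824 CPM, and such low values rest on few counts. Prtn3, the gene of proteinase 3 and also of primary granules, did not separate them, at 5.77 CPM in N1, 6.04 CPM in N4 and 5.29 to 8.10 CPM in M.

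Signalling genes around the members had medians nearer to 0. Of 16 tested genes of G-CSF and STAT3 signalling, 12 had lower values in M, the median was -0.14 and 0 passed. Stat3 itself ran from 243 to 271 CPM in M and stood at 262, 222, 247 and 295 CPM in N1 to N4. Socs3, its feedback inhibitor, ran from 125 to 420.1 CPM in M and stood at 268, 119, 294 and 392 CPM, so the groups overlapped widely. N1 and N4 were both above the other 8 libraries for 5 genes of this list, beside 5.61% of all genes. The 5 were Jak2, Cebpb, Spi1, Lyn and Cebpd. Cebpd, a C/EBP factor, had the largest difference, with 9.37 to 13.7 CPM in M (median 11) and 38.3, 9.87, 14.4 and 32.6 CPM in N. Its log2 difference was -1.09 (SE 0.31), with an edgeR adjusted p of 0.393. Of 15 tested genes of chemoattractant signalling, 9 had lower values in M, the median was -0.03 and 0 passed. C5ar1, the receptor for complement C5a, stood at 11.5 to 23.2 CPM in M (median 16.9) and at 72.9, 9.75, 16.6 and 61.0 CPM in N, whereas the G protein, PI3-kinase and Rac genes of the list differed by log2 values of -0.18 (Gnai2) to 0.18 (Dock2).

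Markers of other blood cells did not all follow the set, and their part in its values was not tested. Classical monocyte markers, 8 of 8 measured, had summed levels of 368 to 541 FPKM in M and 431 to 437 FPKM in N, with levels of -0.23 in N1 and 0.02 in N4. Platelet markers, 9 of 9 lower in M, were highest in N1 for all 9. Their summed levels were 1796 to 3699 FPKM in M and 2019.8 to 8393 FPKM in N, and their level was 1.31 in N1 and -0.72 in N4. Natural killer cell markers, 8 of 8 lower in M, had levels of 0.79 in N2, 0.77 in N3 and -0.62 in N4, and summed to 125 to 200.3 FPKM in M and 108 to 383 FPKM in N. Eosinophil and basophil markers, 7 of 9 lower in M, had a level of 0.98 in N1 and 0.16 in N4, with summed levels of 14.7 to 22.8 FPKM in M and 15.9 to 29.6 FPKM in N. Red cell markers had a level of -1.75 in N1 and 0.01 in N4. T cell markers, 5 of 10 lower in M, had their lowest levels in N1 (-0.35) and N4 (-0.28). They summed to 560.4 to 775 FPKM in M and 502 to 938 FPKM in N. B cell markers were higher in M for 10 of 10, with a median log2 difference of 0.30, 0 past the edgeR threshold and summed levels of 1119 to 1770 FPKM in M and 980.1 to 1417 FPKM in N. Nonclassical monocyte markers, 5 of 8 lower in M, were lowest in N1, at a level of -0.69, and stood at 0.04 in N4, with summed levels of 335 to 448 FPKM in M and 265 to 442 FPKM in N. On the centred level none of these 8 marker lists had N1 and N4 as its highest pair of libraries, as the mature neutrophil genes did, but on summed FPKM the eosinophil and basophil markers did, at 29.6 FPKM in N1 and 23.1 FPKM in N4.

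**Figure D5:**
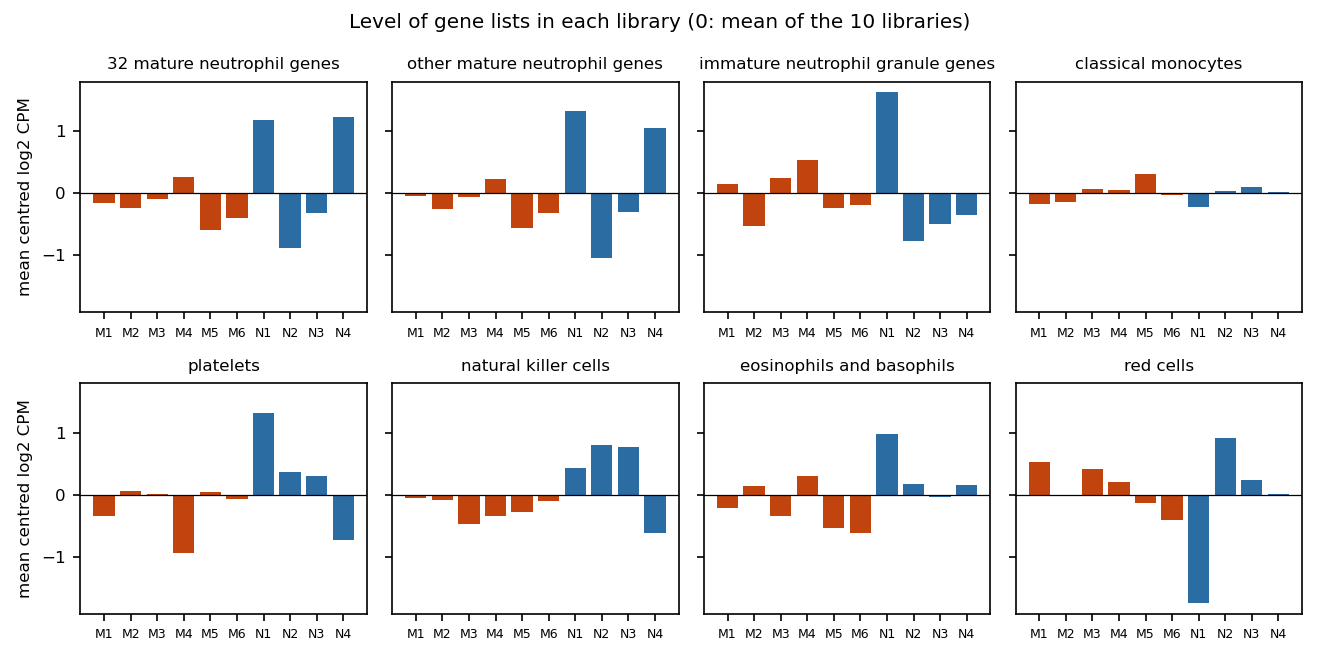
Mean centred log2 CPM of the 32 mature neutrophil genes, the other neutrophil lists and 5 marker lists in each library, M in orange and N in blue. Mature neutrophil genes are high in N1 and N4, immature granule genes and platelet genes are highest in N1, natural killer markers are highest in N2 and N3, and classical monocyte markers stay between -0.23 and 0.31 in all 10 libraries.

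Among 10204 genes outside the set with a mean of at least 5 CPM, the 10 whose centred log2 CPM lay closest to the median pattern of the members over the 10 libraries were Pi16, Cd300ld, Slc16a3, Hlx, Jaml, Hk3, Lpcat2, B430306N03Rik, Gcnt2 and Kif23. Their root mean square distances were 0.12 to 0.18 log2 units, where the members themselves, which were not picked for closeness, had a median of 0.39. Pi16, a peptidase inhibitor, stood at 25.3 to 37.2 CPM in M and at 64.1, 24.1, 29.9 and 67.9 CPM in N. The lactate transporter gene Slc16a3 stood at 31.4 to 54.6 CPM in M and at 109.3, 32.7, 40.1 and 101 CPM in N, and the hexokinase gene Hk3 at 14.1 to 23.4 CPM in M and at 44.5, 16.3, 17.3 and 38.2 CPM in N. Each had N1 and N4 above the other 8 libraries. The 10 genes were picked for closeness to a pattern that is high in N1 and N4, so this was built in.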

How the data were processed

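Messenger RNA libraries of 10 mouse blood samples were made with a paired-end mRNA kit, per the labels' protocols. Per the file headers, the authors deposited read counts and FPKM values for every gene and library. FPKM scales fragments by gene length and library total. Per the submitters' processing notes the genome build was mm10. Neither the aligner and counter nor their treatment of strand and shared reads is stated in the labels or headers. Positions came from GENCODE mouse release 21.

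Counts were filtered with filterByExpr (minimum count 10), scaled by TMM and compared between M and N with the quasi-likelihood F test of edgeR 4.0.16 in R 4.3.3. p-values of the 17268 genes tested were adjusted together by Benjamini-Hochberg and called under 0.05. log2 CPM used a prior count of 1. edgeR differences compare group means of counts, so high libraries weigh more than in a mean of logs. DESeq2 1.42.0, limma 3.58.1 on FPKM, other scalings and filters, and leaving out libraries were the alternatives. The test was also run on simulated data, whose outcome is not reported here. Members of each role group with the highest mean FPKM, the largest and smallest difference and the smallest p, and the member farthest from the median pattern, were given with statistics. The members and lists were chosen with earlier results of these data known. In chi-square comparisons of counts, replicates differed beyond sampling noise in every pair. The chi-square per degree of freedom ran from 14.2 to 44.9 in M and from 69.3 to 238 in N. Pairs with N1 had the largest values, 212 (N2), 219 (N3) and 238 (N4), and the largest without N1 was 125 (N3 with N4). This measure was taken within groups only and weighs abundant transcripts most. By it N1 and N4 were the least alike pair, though both were high on the members.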

Additional observations from a re-analysis of the deposited data

Results flagged for a closer look

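In 3 of 64 groups of values (32 members in M and in N), 1 library lay farther from the rest than Dixon's 95% limit allows, where chance flags about 1 in 20 groups. The measure is the gap to the nearest library as a share of the group's range. Cd177 in N had a ratio of 0.922, with 93.2 CPM in N1 and 55.2 CPM in the next library. G0s2 in N had a ratio of 0.87, with 17.0 CPM in N4 and 6.49 CPM in the next. Acod1 in M had a ratio of 0.654, with 7.5 CPM in M4 and 3.57 CPM in the next.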

How the results depend on the processing

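No member passed the threshold under any of 22 alternatives, and the smallest adjusted p was 0.0938 (Grina in DESeq2). Of 704 member values under the alternatives, 672 kept their direction and 32 changed sign. Without N1 and N4 the median log2 difference of the members was 0.33, and the log2 differences that changed sign were Asprv1 1.34, Steap4 1.19, Hcar2 1.17, Lrg1 0.995, Slfn4 0.96, Ly6g 0.83, Fpr1 0.81, Csf3r 0.76, Trem1 0.58, Stfa2l1 0.50, Acod1 0.49, Retnlg 0.46, Mxd1 0.45, Sorl1 0.44, Slpi 0.40, Ptafr 0.34, Padi4 0.31, G0s2 0.30, Mcemp1 0.24, Osm 0.20, Pygl 0.19, Hp 0.18, Trem3 0.15, Csf2rb 0.14, Pglyrp1 0.10, Lmnb1 0.043 and Msrb1 0.01. Sorl1 also changed sign in limma on log2(FPKM + 1), at 0.012, and on log2(FPKM + 0.1), at 0.013. Over fits leaving out 1 library, Sorl1 ran from -0.30 to 0.10 (positive without N1), G0s2 from -0.77 to 0.31 and Ptafr from -0.46 to 0.065 (both positive without N4).

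Members at an unadjusted p under 0.05, 16 as reported, are given with the share of all genes at that level and lower in M. They were 24 with no filter on low counts (6.81%), 2 in either limma fit (3.34% and 3.72%) and 5 in voom with a variance for each group (4.79%). Without N1 and N4, picked for their high level on these same genes, there were 8 members, all higher in M. Beside them, 8.86% of all genes were higher at that level. Leaving out 1 library gave 2 members without N1 (4.14%), 28 without N2 (7.29%), 24 without N3 (9.91%), 5 without N4 (10.6%) and 7 to 18 without 1 M library (5.19% to 8.9%). Genes called in all were 0 as reported, 85 in DESeq2, 1 in either limma fit, 27 without N1 and N4, and 0 to 10 with 1 library left out (3 without N4, 10 without M1). The median of the members was -0.43 in limma on log2(FPKM + 1) and -0.50 in voom.

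The labels state no pairing by replicate number, and the correlations below cannot exclude one. Same-numbered M and N libraries had correlations of their deviations of -0.05, -0.04, -0.07 and 0.34. Differently numbered pairs reached 0.33 (M2 with N3) and 0.27 (M1 with N2). With the replicate block, the median was -0.38, with 1 member at an unadjusted p under 0.05 (beside 3.85% of all genes lower) and 0 genes called. Every member had at least 22 counts in each library, so for most members the spread among the 4 N libraries, rather than depth, limits these values.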
